A study of Caenorhabditis elegans with 78 samples.

Results

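The comparison concerns H3K9me2, dimethylation of lysine 9 of histone H3 in repressed chromatin, in lin-37(n758) mutant larvae against wild-type larvae of Caenorhabditis elegans at 20 °C. It rests on 4 peak lists, 2 per genotype, out of 78 samples in the series. Overlapping peaks of the 4 lists were merged into 11674 regions. A region was called lost when both wild-type lists and neither lin-37 list held a peak in it, and gained when both lin-37 lists and neither wild-type list did. By that rule 564 regions were lost and 1053 were gained.

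H3K9me2 in the worm is laid down largely on repeats and silent genes, and most of it lies on the distal arms of the autosomes, the parts richest in repeats. LIN-37 is a subunit of DREAM, a repressor complex on the promoters of cell cycle and germline genes that also holds LIN-35, the worm's retinoblastoma-like protein. LIN-15B is a THAP-domain protein that acts in the same repression pathway, named synMuv B. In larvae lacking these proteins, germline genes are known to be expressed in somatic cells, more so at high temperature. H3K9me2 at such genes is found near the promoter, in contrast to the broad domains of the arms. H3K4me3 (histone H3 trimethylated at lysine 4) marks active promoters.

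Animals were whole first-stage (L1) larvae that hatched without food over 14 h. The lin-37(n758) group at 20 °C and the wild-type group (N2 in the sample titles) at 20 °C had 2 H3K9me2 libraries each. Comparison lists came from lin-37(n758) and wild type at 26 °C, and from lin-35(n745) and lin-15B(n744) at both temperatures, with 2 H3K9me2 libraries in each group. The groups at 26 °C came from parents moved to that temperature as fourth-stage larvae. H3K4me3 lists of lin-37 and wild type, 2 per group at each temperature, were a further readout. A peak list cannot show the allele, the stage or the cell type, so these labels were not checked, and a change in whole larvae may come from any tissue. The lists give no read counts, so depth is unknown and a region without a peak is one where none was called, not one without the mark.

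The 4 lists differed in size in ways that bear on every count that follows. The lin-37 lists held 9658 and 10649 peaks, against 8319 and 8499 in the wild-type lists. Both lin-37 lists were above both wild-type lists, by 1744.5 peaks on average (10153.5 ± 701 against 8409 ± 127, SD, n = 2 each). An exact two-sided permutation test gave p = 0.333, which is the smallest that 2 against 2 allows. The same difference was -1550 at 26 °C, where the lin-37 lists held 7778 and 8383 peaks, against 9930 and 9331 in wild type. Covered length overlapped between the genotypes, at 11.1 and 8.84 Mb in lin-37, against 9.10 and 11.3 Mb in wild type (exact permutation p = 0.667). Median peak width was 601 and 444 bp in lin-37, against 547 and 665 bp in wild type. The library codes carried by the list names differ between the genotypes, so genotype and library set cannot be told apart. Nothing in the labels says that replicates were separate cultures, so these p-values measure only the spread between libraries.

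Most of the H3K9me2 landscape was shared. Of the 11674 regions, 5260 were called in all 4 lists, and these held 84.7 and 85.6% of the covered length of the lin-37 lists, against 92.9 and 87.7% of the wild-type lists. The Jaccard index of covered length was 0.663 between the lin-37 lists and 0.657 between the wild-type lists. Across genotypes it was between 0.517 and 0.608, below both values within a genotype. Arms held 94.4 and 94.6% of the autosomal covered length in lin-37, against 95.5 and 93.7% in wild type, so the groups overlapped.

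Lost regions were 8.95% of the 6302 regions called in both wild-type lists, and gained regions were 14.5% of the 7251 called in both lin-37 lists. A further 478 regions were called in both wild-type lists and 1 lin-37 list, and 938 in both lin-37 lists and 1 wild-type list. Single-list calls were common: 704 and 1080 regions were called only in 1 lin-37 list, against 262 and 898 only in 1 wild-type list. The order of the lost and gained counts was not the same under all trimmings. With each list trimmed to the same number of highest-scoring peaks, 771 regions were lost and 542 gained, the opposite order. That trimming takes more peaks from the lin-37 lists, which held more, so it favours fewer gained regions. Trimmed to equal covered length, an alternative chosen after seeing the data, 371 were lost and 473 gained, the order of the full lists.

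Lost regions were small in extent. They held 200.4 and 282.0 kb of the wild-type lists, which is 2.2 and 2.49% of the length those lists cover. Gained regions held 553 and 465 kb of the lin-37 lists, or 4.99 and 5.26%.

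By place, the rate of loss was highest in the autosome centres, whose regions are also narrower. In the centres 144 of 808 regions in both wild-type lists were lost (17.8%), against 393 of 5050 on the arms (7.78%) and 27 of 444 on X (6.08%). Every autosome had the higher rate in its centre: the rates in centres ran from 12.6% on V to 22.5% on III, and those on arms from 6.85 to 8.81%. By deciles of autosome length, 5.45% of the regions were lost in decile 1 and 7.46% in decile 10, and 14.0 to 19.6% in deciles 4 to 7. The centre rate exceeded the arm rate under every trimming, merging, binning and leave-one-out setting tried, with centre rates of 17.5 to 30.5% and arm rates of 7.16 to 15.9%. At like widths, a split added after seeing the data, centre and arm rates were close. They were 29.2% in centres and 28.2% on arms for regions up to 500 bp, 13.2 and 11.3% from 500 to 1000 bp, and 2.44 and 3.54% from 1000 to 2000 bp. Regions in both wild-type lists had a median width of 545 bp in centres and 1332.5 bp on arms. Width was taken over the merged region, and a lost region has no lin-37 peak to widen it. The split by width therefore cannot show whether narrow regions account for the higher rate in centres. Arms still held most of the lost regions, 69.7%, as they hold 5050 of the 6302 regions.

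**Figure D1:**
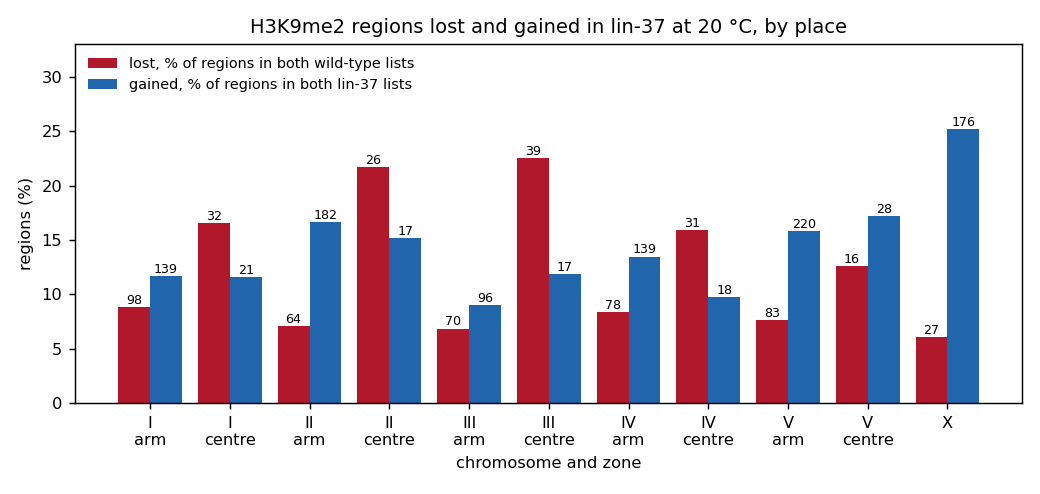
Percent of regions lost (red, of regions in both wild-type lists) and gained (blue, of regions in both lin-37 lists) on the arms and in the centre of each autosome and on X, with the number of regions above each bar. The red bar is higher in the centre than on the arms of all 5 autosomes, without regard to region width, and the tallest blue bar is that of X, at 25.2%.

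Lost regions were narrow and mostly low in the ranking of peaks. The share lost was 26.2% of regions up to 500 bp and 0.109% of those over 2000 bp. A region merged from more lists tends to be wider. Their median width was 455.5 bp, against 1338.5 bp for regions called in all 4 lists, and 54 of 564 were wider than 1 kb. A peak's rank percentile is its place by score within its own list, with 100 as the best. A region took the highest percentile among its peaks in a list, averaged over the lists of a genotype. A wide region with several peaks can therefore rank higher, so rank and width are not independent. The lost regions had a median mean percentile of 32.5 in the 2 wild-type lists, and regions called in all 4 lists had one of 63.1. The share lost was 22.6% at percentiles up to 25, 14.4% from 25 to 50, 5.08% from 50 to 75 and 1.60% above 75. Of the 564 lost regions, 440 lay at or below percentile 50.

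By rank, without regard to width, the centre rate was above the arm rate in each range. At percentiles up to 25, 28.9% of centre regions and 22.8% of arm regions were lost. Above 75 it was 6.63% (11 of 166) in centres and 1.18% (19 of 1612) on arms. Lost centre regions had a median width of 403.5 bp and a median percentile of 43.2, against 485 bp and 30.2 for lost arm regions. Of the lost centre regions 3 exceeded 1 kb.

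**Figure D2:**
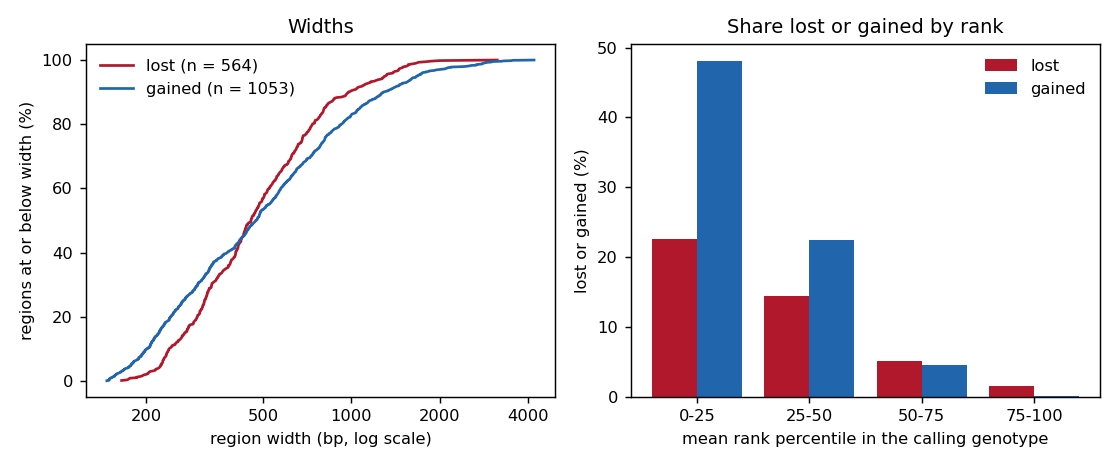
Left, the percent of lost (red) and gained (blue) regions at or below each width, on a log axis; right, the percent of regions lost (of both wild-type lists) or gained (of both lin-37 lists) by range of the mean rank percentile in the genotype that called them. Both width curves cross 50% below 500 bp, and both rates fall with rank, to 1.60% lost and 0.138% gained above percentile 75.

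Most lost regions had no lost neighbour nearby. With gaps under 20 kb between neighbours they formed 472 runs, and 398 regions (70.6%) stood alone. The number of lost regions alone sets part of this share, and isolation was not tested. Only 14 runs held 3 or more. The longest runs, of 4 regions each, lay on the left arms of chromosomes I (3436654-3464756, 3603553-3628701 and 2856483-2880605) and III (3462556-3482740), in coordinates of build ce10. A run of 3 lay at III:9817722-9849726. The median distance from a lost region to the nearest region called in all 4 lists was 4071.5 bp, against 5078 bp for regions called in 1 list only.

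Lists from larvae at 26 °C, which played no part in choosing the members, differed in the same direction. Of the lost regions, 22.9 and 16.5% had a peak in the lin-37 lists at 26 °C, against 75.9 and 39.2% in the wild-type lists at 26 °C. For all regions in both wild-type lists at 20 °C these shares were 84.6 and 84.5% in lin-37, against 94.6 and 86.8% in wild type. The wild-type list with the lower share was the one with the least covered length of all 16 H3K9me2 lists, 7.54 Mb. Among the 213 lost regions called in all 4 wild-type lists, 150 (70.4%) had no peak in either lin-37 list at 26 °C and 30 had one in both. The background for that call was 4.99% (269 of 5395 regions in all 4 wild-type lists). It was 1.36% (67 of 4927) of the regions called in all 4 lists at 20 °C and both wild-type lists at 26 °C. Among the lost regions it was 58 of 77 in centres and 85 of 126 on arms. The share called at 26 °C depended on how regions were drawn: averaged over 2 lists it was 19.7% in lin-37 and 57.5% in wild type. With lists of equal covered length it was 35.7% in lin-37 and 76.3% in wild type, and in 1 kb bins it was 73.9% in lin-37 and 86.9% in wild type.

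The higher-ranked lost regions carried the difference most clearly. Of the 124 with a wild-type percentile over 50, a subset taken after seeing the data, 15.3 and 10.5% were called in lin-37 at 26 °C, against 96.8 and 75% in wild type at 26 °C. For all 3723 regions of that rank in both wild-type lists the shares were 94.6 and 94.3% in lin-37, against 99.4 and 97.3% in wild type. The 30 lost regions over the 75th percentile were called in 5 and 3 cases in the lin-37 lists at 26 °C, against 30 and 29 in the wild-type lists. All 1873 regions of that rank were called at 97.4 and 97.7% in lin-37, against 99.8 and 99.6% in wild type. The 440 lost regions at or below percentile 50 were called at 25 and 18.2% in lin-37 at 26 °C, against 70 and 29.1% in wild type. The background for that rank, all 2579 regions in both wild-type lists, was 70.2 and 70.4% in lin-37, against 87.6 and 71.8% in wild type.

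The lost regions were also seldom called in lin-15B larvae. At 20 °C 10.8 and 14.2% of them had a peak in the lin-15B lists and 45.6 and 23.6% in the lin-35 lists. For all regions in both wild-type lists these shares were 69.8 and 85.3% in lin-15B and 90.3 and 88.9% in lin-35. The first lin-15B list was called at a looser q cutoff than the others, by its peak names. None of the 144 lost centre regions was called in both lin-15B lists at 20 °C, and 23 were called in both lin-35 lists. The first lin-15B list was sparse in centres in general, with 97.4% of its autosomal covered length on arms. It held a peak at 10.9% of the gained regions in centres, against 41.0% of those on arms. The share over all centre regions was not counted, so this absence cannot be read as particular to lost regions. Of all lost regions 253 (44.9%) had no peak in any of the 4 lin-35 and lin-15B lists at 20 °C, against 4.81% of the regions in both wild-type lists. A peak in all 4 wild-type lists and in none of the 10 other mutant lists was found at 70 lost regions (12.4%), against 1.33% of the regions in both wild-type lists.

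**Figure D3:**
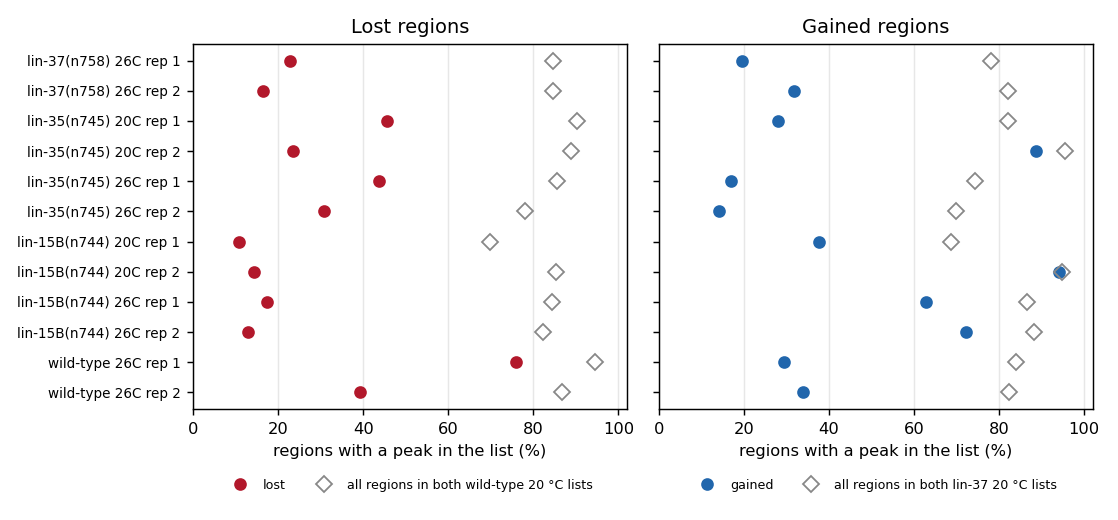
Percent of lost (left, red) and gained (right, blue) regions with a peak in each of the 12 other H3K9me2 lists, with all regions of both wild-type or both lin-37 lists at 20 °C as open diamonds. Lost regions lie lowest in the lin-37 and lin-15B lists, while gained regions lie highest in lin-35 and lin-15B replicate 2 at 20 °C, at 88.7 and 94.1%.

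H3K4me3 lay at lost regions more often in lin-37 than in wild type. At 20 °C 31.6 and 29.3% of the lost regions overlapped an H3K4me3 peak in lin-37, against 20.6 and 20.7% in wild type. At 26 °C the lin-37 lists had it at 41.7 and 37.1%, against 28.4 and 26.2% in wild type. The genotypes did not overlap at either temperature. The regions called in all 4 H3K9me2 lists had 16.4 and 14.8% in lin-37, against 14.9 and 16.03% in wild type at 20 °C. At 26 °C they had 22.1 and 20.8% in lin-37, against 22.2 and 17.3% in wild type, so for these regions the genotypes overlapped. Numbers of H3K4me3 peaks did not separate the genotypes either, at 6090 and 5421 in lin-37, against 5435 and 6077 in wild type. Replicate 2 of both genotypes carried the same library set code, and within that set the shares of lost regions were 29.3% in lin-37 and 20.7% in wild type.

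The overlap was greatest for the higher-ranked lost regions. Of the 124 with a wild-type percentile over 50, 62.9 and 61.3% had H3K4me3 in lin-37 at 20 °C, against 38.7 and 39.5% in wild type. For all regions of that rank in both wild-type lists the shares were 23.3 and 21.4% in lin-37, against 20.2 and 21.3% in wild type.

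**Figure D4:**
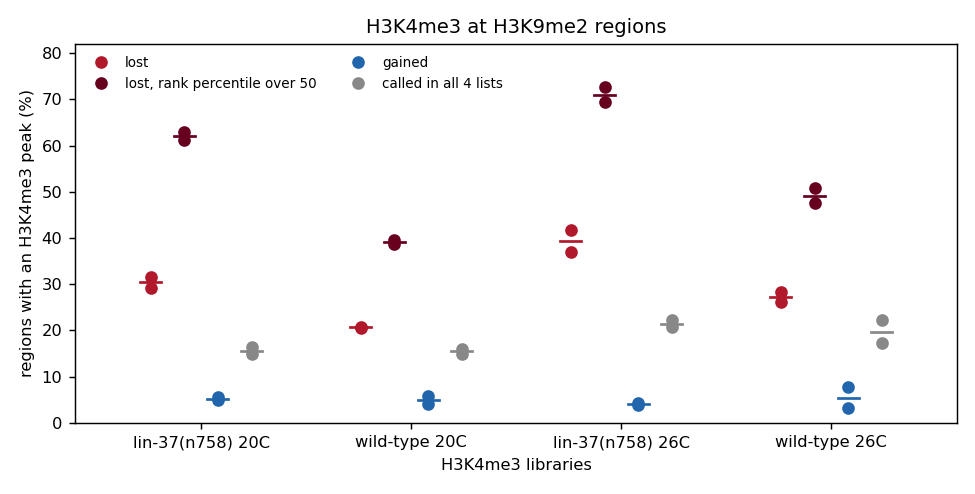
Percent of regions that overlap an H3K4me3 peak, one point per H3K4me3 library and a bar at the mean of 2, for lost regions (red), lost regions with a wild-type rank percentile over 50 (dark red), gained regions (blue) and regions called in all 4 lists (grey). At 20 °C the dark red points are at 62.9 and 61.3% in lin-37, against 38.7 and 39.5% in wild type, and the blue ones are below 6% in both.

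At 50 lost regions (8.87%) H3K4me3 was called in both lin-37 lists and neither wild-type list at 20 °C, and at 0 in the reverse. The background for this call was 2% (126 of 6302 regions in both wild-type lists), and it was 1.05% of the regions called in all 4 H3K9me2 lists. Of the 50, 22 lay in centres (15.3% of the lost regions there), 24 on arms (6.11%) and 4 on X (14.8%). Lost centre regions had more H3K4me3 in wild type at 20 °C too, at 40.3% in each list, against 14.5 and 14.8% of lost arm regions. The share of this call over all centre regions was not counted. The median fold enrichment of H3K4me3 at the summit, as the authors' caller gave it, was 10.1 and 5.88 in the 2 lin-37 lists. In the lists at 26 °C, 50 and 50 of these sites had H3K4me3 in lin-37, with median folds of 24.1 and 11.3. In wild type at 26 °C 22 and 20 of them did, with median folds of 2.64 and 3.91. Each median covers only the sites with a peak in that list, and folds were not brought to a common scale across libraries. At IV:14069965-14070715, with H3K4me3 in every list, folds at 26 °C were 39.1 and 21.3 in lin-37, against 14.2 and 25.4 in wild type. Among all lost regions H3K4me3 was called at 26 °C at 41.7 and 37.1% in lin-37, against 28.4 and 26.2% in wild type. The 50 sites had H3K9me2 called at 26 °C at 3 and 4 of them in lin-37, against 48 and 32 in wild type. At 30 of the 50 H3K9me2 was lost at 26 °C too, against 150 of all 564 lost regions and 269 of the 6302 in both wild-type lists. Another 104 lost regions, 50 of them in centres, had H3K4me3 in all 4 lists at 20 °C. That is 18.4% of the lost regions, against 12.6% of the regions in both wild-type lists. At 380 lost regions (67.4%) there was no H3K4me3 in any list at 20 °C, against 79.0% of the regions in both wild-type lists.

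Of the 30 sites whose H3K9me2 was lost at both temperatures and whose H3K4me3 appeared at 20 °C, 17 had H3K4me3 in both lin-37 and neither wild-type list at 26 °C too, and 11 had it in both wild-type lists there. H3K4me3 appeared at 20 °C at 126 of all regions in both wild-type lists, and at 64 of these it appeared at 26 °C too. None of the 30 had an H3K9me2 peak in a lin-15B list at 20 °C, 21 had none in a lin-35 list and 7 had one in both lin-35 lists. No peak in either lin-15B list was found at 78.7% of all lost regions and 12.8% of the regions in both wild-type lists. For lin-35 these shares were 50 and 6.97%, and both lin-35 lists held a peak at 19.1 and 86.2%. Of the 30 sites, the 10 with the highest wild-type rank are named here, beginning with III:10720863-10721387 (525 bp, right arm). Its H3K9me2 had percentiles of 88.9 and 90.8 in wild type, and its H3K4me3 had folds of 22.1 and 14.8 in lin-37 with none called in wild type at 20 °C. At 26 °C H3K4me3 was called there in both genotypes, with folds of 35.8 and 21.5 in lin-37, against 13.1 and 30.6 in wild type, so the H3K4me3 difference was seen at 20 °C only. At III:7034226-7035205 (980 bp, centre) the folds were 13.9 and 9.31 in lin-37 at 20 °C and 34.1 and 21.5 at 26 °C, with no peak in any wild-type list. At IV:379467-379963 (left arm) lin-37 had folds of 9.89 and 5.53 at the lower temperature and 21.95 and 13.6 at the higher, and no wild-type list held a peak. These 3 sites kept their H3K9me2 peak in both lin-35 lists at 20 °C.

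Further sites on II and III had H3K4me3 in wild type at 26 °C as well. At II:7195182-7195762 (581 bp, centre) H3K4me3 had folds of 19.6 and 12.7 in lin-37, against no call in wild type at 20 °C, and of 29.9 and 28.0 in lin-37, against 2.257 and 3.22 in wild type at 26 °C. The site II:7147175-7147789 (615 bp) on the same chromosome had folds of 7.5 and 5.33 in lin-37 at 20 °C. III:4096202-4096873 (672 bp, left arm) had folds of 12.9 and 5.86 in lin-37 at 20 °C. None of these 3 had an H3K9me2 peak in any of the 10 other mutant lists. The remaining ones of these 10 were II:218901-219256, II:14453507-14454236, V:11554133-11554809 and I:3408315-3409754, with lin-37 folds at 20 °C from 2.90 to 13.0. Of these, only I:3408315-3409754 had H3K4me3 in wild type at 26 °C, with folds of 2.84 and 2.91. It also kept its H3K9me2 peak in both lin-35 lists at 20 °C. No annotation of build ce10 was used, so no gene is named for any region.

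The lost region with the highest wild-type rank was V:10813172-10813854 (683 bp, centre), with percentiles of 94.4 and 94.8. Its H3K4me3 fold was 25.1 and 10.0 in lin-37, against no peak and 4.05 in wild type at 20 °C. At 26 °C it had an H3K9me2 peak in both lin-37 and both wild-type lists, so the loss did not recur there. III:8627872-8628696 (825 bp, centre) followed, with percentiles of 85.7 and 96.0 and no H3K9me2 peak in either lin-37 list at 26 °C. IV:14069965-14070715 (751 bp, right arm) and III:8903757-8904164 (408 bp, centre) had high H3K4me3 in every list at 20 °C. Their folds were 25.4 and 14.7 in lin-37, against 20.9 and 21.3 in wild type for the site on IV, and 28.6 and 21.4 in lin-37, against 22.1 and 16.03 in wild type for the site on III. Both were called again in lin-37 at 26 °C, in 1 and 2 lists.

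The widest lost regions differed among themselves in rank and H3K4me3. V:19474498-19477643 (3146 bp, right arm), II:13581577-13583577 (2001 bp) and II:12098024-12099894 (1871 bp) had mean wild-type percentiles of 30.0 to 33.4 and no H3K4me3 in any list. IV:825156-826851 (1696 bp) had a mean percentile of 25.2 and was called again in both lin-37 lists at 26 °C. III:234617-236410 (1794 bp) had one of 57.2 and H3K4me3 in every list, with folds of 64.1 and 34.1 in lin-37, against 62.6 and 31.8 in wild type at 20 °C.

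The remaining 5 of the 10 highest-ranked lost regions all lay in 1 stretch of the left arm of V, 2350471-2550403 (199.9 kb). The stretch was picked after seeing the data, as the longest chain, with gaps under 50 kb, of regions called in at least 3 of the 4 wild-type and in none of the 12 mutant lists. It held 17 such regions of 166 in the genome. It held 35 regions in all, of which 9 were lost, 12 were called in all 4 lists and 0 were gained. The lost ones were 247 to 1347 bp wide with mean wild-type percentiles of 87.0 to 90.7, far above the median of 32.5 for all lost regions. Among the regions of the stretch, the most frequent midpoint spacing over 50 kb was 108.1 kb, shared by 4 pairs of lost regions. That 1 kb window of spacing held 16 pairs of regions, against up to 11 in a window elsewhere. It was picked as the most frequent, and a repeat was not tested. Whether the DNA of the stretch differs in copy number between the strains was not tested, so its values may reflect the DNA rather than the mark.

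The choice of the stretch fixes much of its difference between mutant and wild-type lists, so its coverage is given as a description. Peaks covered 22.5 and 12.4 kb of it in lin-37, against 48.2 and 55.1 kb in wild type at 20 °C, and 30.2 and 21.8 kb in lin-37, against 62.9 and 50.7 kb in wild type at 26 °C. The lin-35 lists covered 18.8 to 23.0 kb and the lin-15B lists 10.3 to 20.3 kb. Outside the 17 regions that defined it, 22.5 and 12.4 kb were covered in lin-37, against 45.5 and 51.0 kb in wild type at 20 °C. The flanks, of the same length on each side, overlapped between genotypes, with 72.5 and 63.1 kb in lin-37, against 53.2 and 72.9 kb in wild type at 20 °C. The 12 regions called in all 4 lists ranked lower in lin-37 too, at a median percentile of 69.3, against 98.9 in wild type. H3K4me3 was sparse there, with 2 and 2 peaks in lin-37, against 3 and 4 in wild type at 20 °C. Without the stretch 555 of 6279 regions were lost (8.84%).

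**Figure D5:**
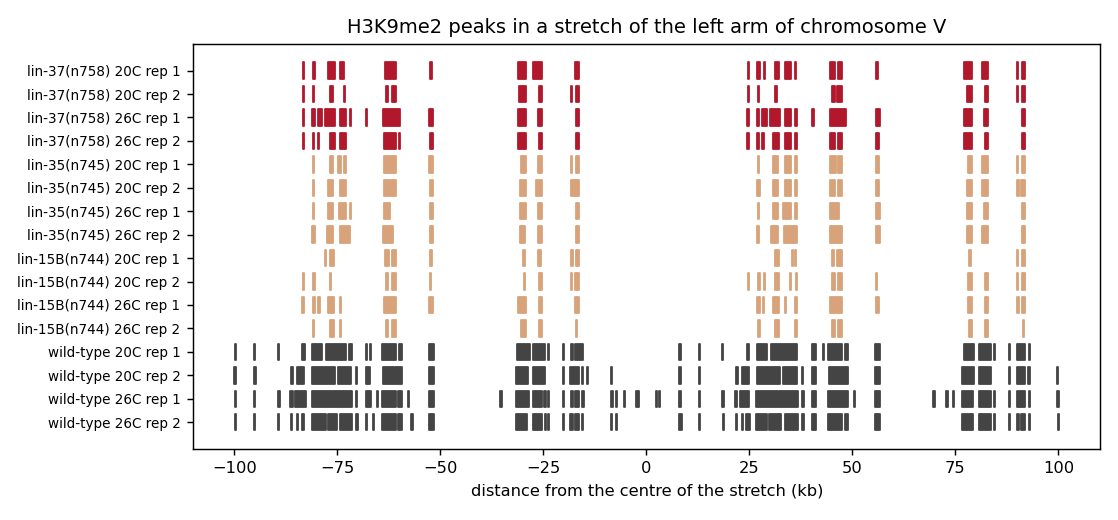
H3K9me2 peaks in the stretch of the left arm of V, one row per library, as distance from its centre in kb, with lin-37 in red, lin-35 and lin-15B in tan and wild type in dark grey. The 4 wild-type rows, with 48.2 to 62.9 kb covered, hold more and wider peaks than the lin-37 rows, with 12.4 to 30.2 kb.

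Gained regions were placed differently from lost ones, with the highest rate on X. Of the regions in both lin-37 lists, 25.2% on X were gained (176 of 699), against 13.5% on the arms (776 of 5768) and 12.9% in the centres. The X rate exceeded the arm rate under every trimming, merging, binning and leave-one-out setting tried, with X rates of 16.7 to 40.3% and arm rates of 7.55 to 24.9%. Per library, X took 5.83 and 5.87% of the covered length in lin-37, against 3.74 and 4.42% in wild type at 20 °C. The lin-37 lists were above both wild-type lists, by 1.77 percentage points on average (exact permutation p = 0.333, the smallest possible). At 26 °C it was 5.76 and 6.12% in lin-37, against 5.06 and 5.08% in wild type, again without overlap. In the same split by width, added after seeing the data, the X rate of gain was 34.1%, against 37.6% on arms, up to 500 bp. It was 21.9% against 16.7% from 500 to 1000 bp and 16.3% against 7.65% from 1000 to 2000 bp. Over 2000 bp it was 13.7% (10 of 73), against 1.18% on arms (21 of 1785). A gained region has no wild-type peak to widen it, so this split cannot show what part width has in the X rate. X held 4.88 to 13.8% of the covered length in the lin-35 and lin-15B lists.

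Gained regions were narrow and low in rank. Their median width was 475 bp, and 181 were wider than 1 kb. Their median percentile was 25.1 in the lin-37 lists, and the share gained was 48.1% at percentiles up to 25 and 0.138% above 75. Only 3 gained regions had a percentile over 75. With the same gap of 20 kb, 465 (44.2%) stood alone and 342 (32.5%) lay in 86 runs of 3 or more. The larger number of gained regions alone gives more neighbours, and clustering was not tested.

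At 26 °C the gained regions were not called more often in lin-37 than in wild type. A peak was found at 19.5 and 31.9% of them in the lin-37 lists at 26 °C, against 29.5 and 34.0% in the wild-type lists, so the groups overlapped. Both lin-37 and neither wild-type list at 26 °C held a peak at 24 of the 1053 (2.28%), against a background of 0.883% (64 of 7251). Among the regions in neither wild-type list at 20 °C it was 1.66% (47 of 2837). The reverse pattern was seen at 34 gained regions (3.23%), against 2.04% of the regions in both lin-37 lists and 2.29% of those in neither wild-type list. With only the top 75% of each list at 20 °C used to choose the regions, 56.2% of the gained regions were called per lin-37 list at 26 °C, against 65.4% per wild-type list. Of the 176 gained regions on X, 3 were gained at 26 °C too (1.70%, against 0.715% of the regions on X in both lin-37 lists) and 7 were reversed (3.98%, against 2.29%). In the other mutants at 20 °C, gained regions were called far more often in the longer list of each pair. The lin-35 lists, of 9167 and 10730 peaks, held a peak at 28.0 and 88.7% of them, against 82.2 and 95.5% of all regions in both lin-37 lists. The lin-15B lists, of 8273 and 13766 peaks, held one at 37.6 and 94.1%, against 68.6 and 94.9%. Regions in neither wild-type list were at 17.4 and 68.0% in lin-35 and 23.97 and 82.9% in lin-15B, so the contrast within each pair was not particular to gained regions.

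H3K4me3 lay at 5.51 and 4.94% of the gained regions in lin-37, against 4.08 and 5.89% in wild type at 20 °C. All regions in neither wild-type list were alike, with 5.50 and 4.79% in lin-37, against 3.98 and 6.24% in wild type. H3K4me3 was called in both lin-37 and neither wild-type list at 5 gained regions (0.475%), and in the reverse at 4. The background for the first call was 0.827% of the regions in both lin-37 lists and 0.493% of those in neither wild-type list.

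The gained region with the highest rank was X:15362090-15362419 (330 bp), with percentiles of 82.8 and 84.3 in lin-37. It was called in both wild-type lists at 26 °C and in all 10 other mutant lists, so the wild-type lists at 20 °C were the only ones without it. IV:13909665-13909871 (207 bp) and IV:12637970-12638454 (485 bp) followed, with mean percentiles of 80.5 and 79.1, and both were called in both wild-type lists at 26 °C. Of the 10 highest-ranked, only II:11529975-11530130 (156 bp, mean percentile 74.5) was gained at 26 °C too. The next of that kind were V:17126866-17127060, V:17595636-17595981 and II:1947059-1949854, with mean percentiles of 47.0 to 59.0.

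The widest gained regions were X:3237187-3241386 (4200 bp), III:692151-695692 (3542 bp), I:14996455-14999973 (3519 bp), II:2998764-3002054 (3291 bp) and V:724552-727812 (3261 bp). None was called in a lin-37 list at 26 °C, and 1, that on III, was called in a wild-type list at 26 °C. All 5 were called in both lin-15B lists at 20 °C. The longest run of gained regions, 10 over 103.4 kb at II:1651219-1754613, had no member called in any list of either genotype at 26 °C. In lin-35 at 20 °C 7 and 10 of its members were called, and in lin-15B 7 and 10. Other long runs were I:11429369-11490342 and V:17025952-17067416 (9 regions each), and V:17169927-17245634 and I:12249539-12285647 (8 each).

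For comparison, the same rule applied to lin-37 against wild type at 26 °C gave 552 lost (7.76% of 7111) and 154 gained (2.35% of 6559). In lin-35 against wild type at 20 °C, which shares its wild-type lists with lin-37, it gave 456 lost (7.23% of 6305) and 517 gained (7.61% of 6793). Centres held 25.5% of the lost regions in lin-37 at 20 °C, 19.6% in lin-37 at 26 °C and 25.4% in lin-35 at 20 °C. X held 16.7%, 14.9% and 26.9% of the gained regions.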

How the data were processed

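The authors used Bowtie 1.1.2, build ce10 and MACS2 (version not given in the sources used here), per the submitters' processing notes. Each library had its own list and input, per the labels. Peak names give a q cutoff of 0.01 for the 4 lists compared, a shift of 125 bp for H3K9me2 and an extension of 250 bp for H3K4me3. Broad peaks of H3K9me2 were deposited with 3 score columns, whose meaning was not settled; the score only ranked peaks within a list. The deposited H3K4me3 lists give fold enrichment, −log10 p and −log10 q at each summit; repeated intervals were collapsed. Missing depth limits every call, and no counting interval can be given.

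Peaks of the 4 lists were merged where they overlapped, and a region was called in a list with at least 1 bp of overlap. The outer 30% on either side of an autosome, up to its last peak, counted as arms. Per-library values were compared by exact two-sided permutation. Python 3.11.15, pandas 2.3.3 and SciPy 1.17.1 were used. Members and lists were chosen with earlier results of these data known. Regions named were the 10 highest-ranked and 5 widest of each kind, up to 10 lost at both temperatures with H3K4me3 appearing at 20 °C, up to 10 gained at both, and the longest runs. Alternatives were 200 bp overlap, equal peak numbers, the top 75% of peaks, 500 bp merging, 1 kb bins, leaving out each replicate and pairing by replicate number; equal covered length and leaving out a stretch of V were added after seeing the data. Merging was tested on simulated lists. No DNA sequence of build ce10 was used.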

Additional observations from a re-analysis of the deposited data

Results flagged for a closer look

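The genotype difference in the number of H3K9me2 peaks had opposite signs at the 2 temperatures. The lin-37 lists held 1744.5 more peaks than the wild-type lists on average at 20 °C and the difference was -1550 at 26 °C. The change between temperatures was 3294.5 peaks, with a permutation p of 0.0556 over 36 arrangements within temperature, the smallest that these libraries can give. The genotypes did not overlap at either temperature. The part of depth in this difference was not tested, since the lists hold no read counts.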

How the results depend on the processing

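The number of lost regions (564) ranged from 620 to 1491 when 1 library was left out. It was 1002 without lin-37 replicate 1, 620 without lin-37 replicate 2, 1491 without wild-type replicate 1 and 966 without wild-type replicate 2, since fewer lists then have to lack or hold the peak. The number of gained regions (1053) ranged from 1429 to 2405, with 2405 without lin-37 replicate 1, 1784 without replicate 2, 1429 without wild-type replicate 1 and 1705 without replicate 2. Equal peak numbers gave 542 gained, and equal covered length gave 371 lost and 473 gained. The difference in covered length (-0.25 Mb) was reversed without lin-37 replicate 2 (0.870) and without wild-type replicate 2 (0.868), with a range of -1.37 to 0.870. The difference in arm share (-0.115 points) was reversed with the top 75% of peaks (0.0672), equal peak numbers (0.212) and without wild-type replicate 1 (0.759), over a range of -0.990 to 0.759. The causes were not tested. With libraries paired by replicate number as a block, the differences in peak number (1744.5) and X share (1.77 points) had an exact p of 0.5, the smallest that 2 pairs allow; the labels do not say what a shared number means. In 1 kb bins 4.20% of lost bins lay in centres and 73.9% of lost bins were called in lin-37 at 26 °C, against 86.9% in wild type; the cause was not tested. Depth was unknown for every list, so how far it sets the calls was not tested. Equal peak numbers and equal covered length give no difference in the quantity they equalise.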
